A study of Mus musculus with 9 samples.

Results

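The 10 genes described here are Toll-like receptors (Tlr2, Tlr4, Tlr7, Tlr13), receptors that work beside them (Cd14, Clec7a) and proteins that carry their signal (Myd88, Irak3, Irak4, Traf6). They were chosen by gene symbol as a pathway, and they make up 10 of the 54532 genes counted. All 10 were counted in every library and passed the filter on low counts in every comparison. The data are RNA sequencing counts of heart tissue of male mice of the C57BL/6J strain, wild type and 8 to 10 weeks old, with 3 mice in each of 3 groups. In the MIRI group (myocardial ischemia/reperfusion injury) the left anterior descending coronary artery was tied for 30 min and then released for 24 h, and the mice received saline. The GXNI group had the same ligation and received Guanxinning injection, a herbal preparation, at 9 mL/kg into the tail vein. The sham group had the chest opened and the suture passed without tying, and received saline, so that MIRI and GXNI share the ligation and all 3 groups share the surgery. Each library comes from the heart of 1 mouse, and the spread within a group is therefore the spread between animals.

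Toll-like receptors bind molecules of microbes and molecules released by damaged cells. Most of them pass the signal through the adaptor MyD88 to a complex of IRAK kinases and then to the ubiquitin ligase TRAF6, which leads to NF-κB and to the transcription of cytokines and chemokines. In the heart they are known from resident macrophages, endothelial cells and cardiomyocytes and from the neutrophils and monocytes that enter after an infarct, and TLR4 in particular has been studied in reperfusion injury.

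Library totals ran from 17119454 to 22811295 counts. Levels are given as CPM (counts scaled to a common library total, with TMM factors), and 3 counts correspond to 0.132 to 0.175 CPM. The library labelled MIRI 2 stood apart from the other MIRI libraries and was most similar to GXNI 1 (Spearman rho = 0.98 across 16222 genes), while the library labelled GXNI 3 was most similar to MIRI 3 (rho = 0.99). The deposited labels were kept, and in these counts an exchange of labels cannot be told apart from differences between mice. Every value given for MIRI or GXNI holds for the labels as deposited, and each comparison of the 10 genes that includes these libraries is also given without them. The tissue is labelled as cardiomyocytes, but endothelial, fibroblast and macrophage markers were counted in all 9 libraries, so that fewer cells of a type and less RNA per cell cannot be told apart.

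Cd14, the co-receptor that hands lipopolysaccharide to TLR4, reached the highest level of the 10 genes. The sham libraries had 12.7, 10.7 and 10.7 CPM. The MIRI libraries 1, 2 and 3 had 108, 7.87 and 121 CPM, and the GXNI libraries 1, 2 and 3 had 10.6, 39.6 and 111 CPM. MIRI 1, MIRI 3 and GXNI 3 thus lay far above sham, GXNI 2 lay between, and MIRI 2 and GXNI 1 lay below every sham library. The group means were 11.4 ± 1.14 (sham), 78.8 ± 61.8 (MIRI) and 53.7 ± 51.6 CPM (GXNI) (SD, n = 3 each).

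Tlr13, an endosomal receptor for bacterial ribosomal RNA, was highest in the same 3 libraries. Its level was 7.25, 6.101 and 6.91 CPM in sham, 36.7, 3.47 and 45.4 CPM in MIRI 1, 2 and 3, and 7.10, 19.0 and 46.1 CPM in GXNI 1, 2 and 3. In falling order they were GXNI 3, MIRI 3 and MIRI 1, and MIRI 2 was the lowest of all 9. Tlr2, the receptor for bacterial lipoproteins, had 7.31, 6.001 and 6.64 CPM in sham, 23.3, 1.88 and 19.0 CPM in MIRI, and 3.97, 12.5 and 38.2 CPM in GXNI. Within GXNI the highest library was 9.62 times the lowest for Tlr2, against 1.22 times within sham.

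Tlr4, the receptor for lipopolysaccharide, was the single receptor whose MIRI libraries all lay above all sham libraries. It had 19.4, 17.7 and 16.1 CPM in sham, 46.9, 22.9 and 43.1 CPM in MIRI, and 17.8, 28.5 and 57.6 CPM in GXNI. The MIRI and sham groups did not overlap, but the GXNI group overlapped both. Tlr7, an endosomal receptor for single-stranded RNA, overlapped between all groups, with 4.39 to 9.35 CPM in sham, 3.76 to 9.49 CPM in MIRI and 6.20 to 9.81 CPM in GXNI.

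Clec7a encodes dectin-1, a C-type lectin for fungal beta-glucans that signals through the kinase SYK and acts together with TLR2. Its level was 2.90, 4.66 and 4.44 CPM in sham, 26.2, 1.65 and 20.1 CPM in MIRI, and 1.39, 8.78 and 50.7 CPM in GXNI. The GXNI libraries differed by 36.4 times from lowest to highest, the widest range of any of the 10 genes within a group. The lowest values of the gene, in MIRI 2 and GXNI 1, came from 28 counts each.

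Myd88, the adaptor shared by most Toll-like receptors, was the single gene of the 10 whose GXNI libraries all lay above all sham libraries. It had 17.6, 12.7 and 16.9 CPM in sham, 32.03, 11.99 and 32.7 CPM in MIRI, and 19.3, 26.8 and 37.9 CPM in GXNI. Traf6, the ubiquitin ligase that receives the signal, had 15.8, 18.5 and 16.7 CPM in sham, 29.6, 18.1 and 32.6 CPM in MIRI, and 15.2, 19.3 and 34.8 CPM in GXNI. For both genes MIRI 2 was at the sham level or below it.

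The IRAK genes differed in range. Over the MIRI and GXNI libraries the highest level was 1.61 times the lowest for Irak4, the narrowest range of the 10 genes. It was 2.46 times for Irak3 and 2.29 times for Traf6. Irak3, an inhibitory member of the family, had 7.76 to 12.4 CPM in sham, 6.52 to 16.04 CPM in MIRI and 8.99 to 15.7 CPM in GXNI. Irak4, the kinase that starts the cascade on MyD88, had 7.36 to 7.99 CPM in sham, 6.23 to 9.53 CPM in MIRI and 7.88 to 10.04 CPM in GXNI. The groups overlapped for both. The exons of Irak4 share 395 bp with Twf1 on the opposite strand, those of Irak3 share 192 bp with Tmbim4 and 28 bp with Gm47009, and those of Myd88 share 290 bp with Acaa1a. The strand setting of the counting is not given in the sources used here, so reads in these stretches cannot be told apart.

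**Figure D1:**
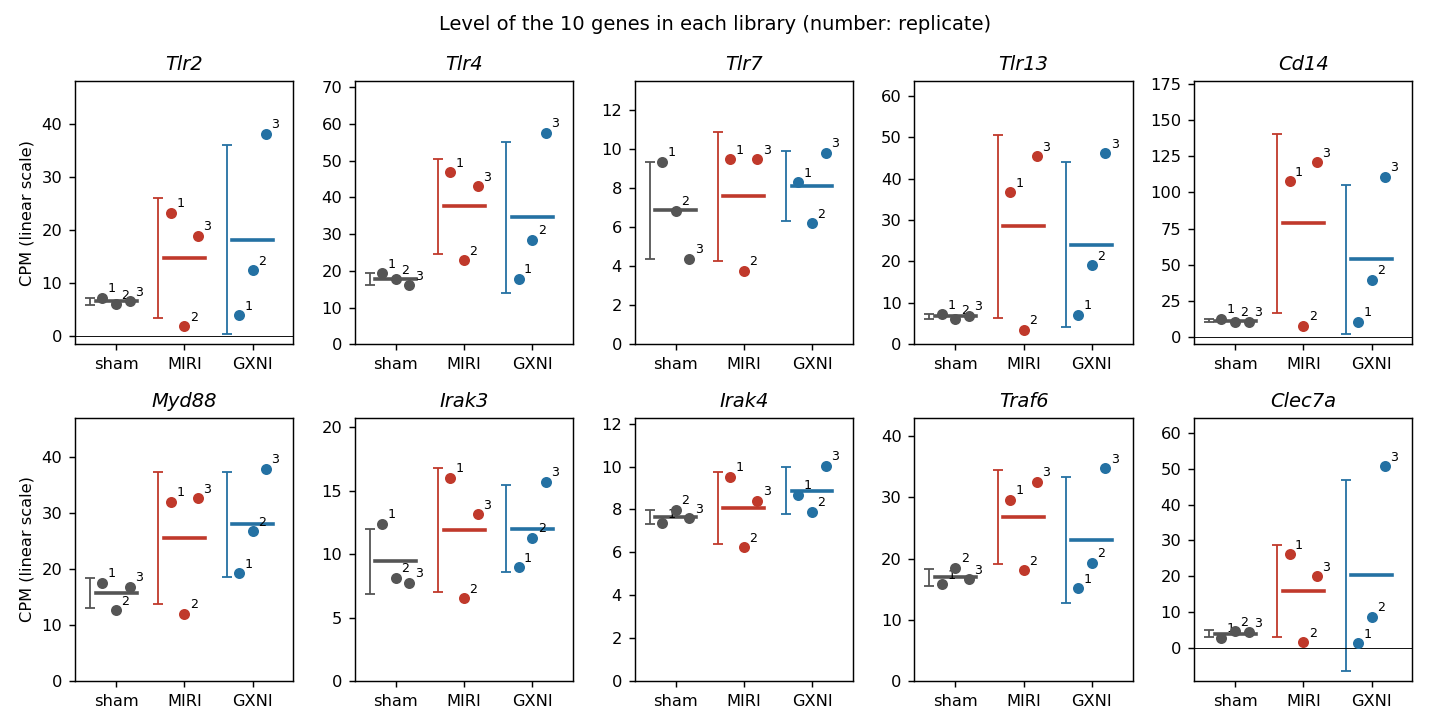
Level of each of the 10 genes in the 9 libraries (y axis: CPM, linear scale; x axis: group). Points are mice, numbered by replicate, horizontal lines are group means and the bars beside them are SDs (n = 3). For 9 of the 10 genes the 3 highest points are MIRI 1, MIRI 3 and GXNI 3, and for 7 the lowest is MIRI 2.

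The order of the libraries was much alike among the 10 genes. The libraries labelled MIRI 1, MIRI 3 and GXNI 3 were the 3 highest of 9 for 9 of the 10 genes (all but Irak4), against 20.0% of the 15207 genes tested. MIRI 2 was the lowest of 9 for 7 genes, against 12.0% of genes, and lay below all 3 sham libraries for 8, against 33.7%. GXNI 2 lay above all sham libraries and below those 3 highest libraries for 7 genes (Tlr2, Tlr4, Tlr13, Cd14, Myd88, Traf6, Clec7a), against 16.6% of genes. These orders were noticed in the counts and carry no test.

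Read by the labels, the separation was smaller. All 6 ligated libraries lay above all 3 sham libraries for 0 of the 10 genes, against 7.96% of all genes tested. The 3 MIRI libraries lay above the 3 sham libraries for 1 gene (Tlr4), against 16.6% of genes. The 3 GXNI libraries lay above the 3 sham libraries for 1 gene (Myd88), against 13.6%, and below the 3 MIRI libraries for 0 genes, against 1.39%.

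In sham hearts the level per kilobase of exon could be compared between genes. Cd14 was highest with 6.56 ± 0.66 CPM per kb, followed by Myd88 with 6.09 ± 1.03 CPM per kb and, after a gap, Tlr4 with 3.19 ± 0.30 CPM per kb (SD, n = 3). Irak3, Tlr2, Traf6, Tlr7, Tlr13, Irak4 and Clec7a followed in that order, from 2.57 down to 1.52 CPM per kb. Except for Myd88 and Tlr4, the ranges of neighbours in this order overlapped.

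The genes are spread over the genome (GRCm38). Tlr2 lies on chr3:83836272-83841767, Tlr4 on chr4:66827584-66930284, Tlr7 on chrX:167304929-167330558, Tlr13 on chrX:106143204-106160493 and Clec7a on chr6:129461591-129472779. Myd88 lies on chr9:119335934-119341411, Irak3 on chr10:120141648-120202130, Irak4 on chr15:94543643-94581815 and Traf6 on chr2:101678429-101701669. RefSeq promoter windows (GRCm38.p6) were held for 7 of the 10 genes, Irak3 and Clec7a with 2 windows each. The 250 bases before the start were searched on both strands for letters of factors that act in this pathway or in myeloid cells, namely the κB motif of NF-κB, the GAGGAA core bound by PU.1, the AP-1 motif TGANTCA and the C/EBP motif TTNNGNAA. Among 32851 windows of the same length the κB motif was in 7.25%, GAGGAA in 23.3%, TGANTCA in 6.75% and TTNNGNAA in 36.8%. The κB motif was found before Tlr2, as 2 overlapping matches in the same stretch, GAGGAA before Tlr13 and Clec7a and in 2 places before Traf6, and TTNNGNAA before Tlr2 and Traf6. None of the 4 motifs was found in the windows of Myd88, Irak3 and Irak4. For each of these 4 genes 1 window is printed, up to the first annotated exon and with the matched letters in capitals. The second Clec7a window holds the same GAGGAA. For Traf6 the bases after the start were not found in an annotated transcript of the gene. All 4 genes were called higher in MIRI against sham without MIRI 2, against 16.9% of all genes tested. The same fit also called Myd88, whose window had no match, and Cd14 and Tlr4, which had no window. MIRI 2 was left out with its values known, so these calls are no independent support. A link between the motifs and the changes was not tested.

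Tlr2 (chr3:83841768-83841858, minus strand): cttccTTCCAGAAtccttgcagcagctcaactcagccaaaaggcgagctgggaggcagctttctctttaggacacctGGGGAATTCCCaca
Tlr13 (chrX:106143025-106143203, plus strand): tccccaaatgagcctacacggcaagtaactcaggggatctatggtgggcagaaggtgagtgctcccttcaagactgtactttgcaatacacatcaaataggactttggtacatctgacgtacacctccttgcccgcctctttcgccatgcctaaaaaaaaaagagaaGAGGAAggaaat
Clec7a (chr6:129472780-129473029, minus strand): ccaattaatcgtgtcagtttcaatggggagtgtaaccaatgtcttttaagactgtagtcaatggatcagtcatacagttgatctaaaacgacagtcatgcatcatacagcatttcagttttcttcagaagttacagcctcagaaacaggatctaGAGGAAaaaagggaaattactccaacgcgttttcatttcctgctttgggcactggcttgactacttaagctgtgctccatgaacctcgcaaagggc
Traf6 (chr2:101678170-101678419, plus strand): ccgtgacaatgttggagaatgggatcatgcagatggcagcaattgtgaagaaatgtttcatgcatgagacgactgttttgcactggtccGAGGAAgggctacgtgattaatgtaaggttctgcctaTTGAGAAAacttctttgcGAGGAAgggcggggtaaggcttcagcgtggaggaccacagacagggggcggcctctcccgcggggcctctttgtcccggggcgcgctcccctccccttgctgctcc

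The first comparison asked what ischemia and reperfusion changed, with the 6 MIRI and GXNI libraries together against the 3 sham libraries, which does not depend on which ligated mouse received the drug. Genes were called where edgeR's quasi-likelihood test gave a fold of 1.5 or more with an unadjusted p no larger than 0.01, and a Benjamini-Hochberg adjusted p over all genes tested is given beside it. The log2 fold change was above 0 for all 10 genes, with a median of 0.90 against 0.01 over all genes tested. It was 2.54 ± 0.89 (SE) for Cd14, 2.18 ± 1.05 for Clec7a and 1.96 ± 0.76 for Tlr13. It was 1.31 ± 0.78 for Tlr2 and 1.03 ± 0.35 for Tlr4. Among the signal proteins it was 0.78 ± 0.32 for Myd88, 0.56 ± 0.27 for Traf6, 0.35 ± 0.29 for Irak3 and 0.15 ± 0.16 for Irak4, and it was 0.20 ± 0.33 for Tlr7. None of the 10 was called (0 of 10), while 5.52% of all genes tested were called higher. In edgeR 4 of the 10 had an unadjusted p under 0.05, against 4488 of the 15207 genes tested. The adjusted p was lowest for Tlr4 (edgeR, 0.109) and Cd14 (0.112).

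These results moved with single libraries. Without MIRI 2, 4 of the 10 genes were called higher (Tlr4, Tlr13, Cd14, Myd88), against 9.67% of all genes tested, with log2 fold changes of 1.13 ± 0.34, 2.19 ± 0.56, 2.78 ± 0.71 and 0.92 ± 0.22. Without GXNI 1, 2 genes were called (Tlr4, Cd14), against 9.57% of genes. Without GXNI 3, 0 of 10 were called in edgeR, against 3.77% of genes, with all 10 above 0 and a median of 0.75. An unadjusted p under 0.05 in edgeR was reached there by 3 of the 10, against 3609 of 15005 genes. Without both MIRI 2 and GXNI 3, 3 genes were called (Tlr13, Cd14, Myd88), against 6.6% of genes. These libraries were left out with their values known, so the calls gained without MIRI 2 or GXNI 1 are no independent support.

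The comparison of MIRI with sham addressed the injury in untreated mice. Tlr4 rose by a log2 fold change of 1.10 ± 0.27 (edgeR, adjusted p = 0.0865) and was the 1 gene of 10 called, against 6.15% of all genes tested. The call of Tlr4 was lost without any of sham 1, sham 2, sham 3, MIRI 1 or MIRI 3, with adjusted p values from 0.222 to 0.291 in edgeR, and kept without MIRI 2 (adjusted p = 0.000341). The log2 fold change was 2.80 ± 0.85 for Cd14, 2.09 ± 0.78 for Tlr13, 2.01 ± 0.83 for Clec7a and 1.16 ± 0.74 for Tlr2, none of which passed the threshold. It was 0.72 ± 0.37 for Myd88, 0.67 ± 0.23 for Traf6, 0.35 ± 0.36 for Irak3, 0.16 ± 0.42 for Tlr7 and 0.09 ± 0.20 for Irak4. All 10 were above 0, with a median of 0.91.

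Without the library labelled MIRI 2, which leaves 2 MIRI mice against 3 sham mice, 7 of the 10 genes were called higher, against 16.9% of all genes tested. MIRI 2 was the lowest MIRI library for each of the 10 genes and was left out with its values known, so the larger changes and smaller standard errors follow in part from that choice and are no independent support. The same 7 had an adjusted p of at most 0.05, against 22.8% of genes that were higher at that threshold. Cd14 rose by 3.33 ± 0.13 on the log2 scale (edgeR, adjusted p = 5.88e-05), Tlr13 by 2.61 ± 0.15 and Clec7a by 2.53 ± 0.23. Tlr2 rose by 1.68 ± 0.16 (adjusted p = 0.000402) and Tlr4 by 1.35 ± 0.12 (adjusted p = 0.000341). Downstream, Myd88 rose by 1.05 ± 0.16 (adjusted p = 0.00210) and Traf6 by 0.88 ± 0.12 (adjusted p = 0.00151). Irak3 (0.64 ± 0.23, adjusted p = 0.0594), Tlr7 (0.47 ± 0.29) and Irak4 (0.23 ± 0.16) were not called.

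GXNI against sham shows the treated injured heart. The log2 fold change was 2.35 ± 1.10 for Clec7a, 2.25 ± 0.75 for Cd14, 1.85 ± 0.61 for Tlr13, 1.47 ± 0.72 for Tlr2, 0.98 ± 0.41 for Tlr4 and 0.85 ± 0.27 for Myd88. It was 0.46 ± 0.31 for Traf6, 0.36 ± 0.28 for Irak3, 0.25 ± 0.32 for Tlr7 and 0.23 ± 0.17 for Irak4. None of the 10 was called in edgeR (0 of 10), against 2.67% of all genes tested that were called higher. With all libraries 4 of the 10 had an unadjusted p under 0.05 in edgeR, against 2914 of 14695 genes. Without GXNI 1, 6 genes were called higher (Tlr2, Tlr4, Tlr13, Cd14, Myd88, Clec7a), against 10.7% of genes, and all 6 had an adjusted p of at most 0.0379. For each of these 6 genes GXNI 1 was the lowest GXNI library, and it was left out with its values known. The larger changes and the calls therefore follow in part from that choice and are no independent support.

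Without GXNI 3 the changes of all 10 genes were smaller. Of the 10 genes 0 were called in edgeR, against 2.11% of genes. In edgeR 2 had an unadjusted p under 0.05, against 2376 of 15007 genes. The median log2 fold change was 0.33. All 10 remained above 0. The log2 fold change was 1.15 ± 0.48 for Cd14, 0.96 ± 0.38 for Tlr13, 0.56 ± 0.20 for Myd88 and 0.39 ± 0.21 for Tlr4. For Clec7a it was 0.35 ± 0.67, for Tlr2 0.31 ± 0.44 and for Traf6 0.030 ± 0.15, so that the larger values of these 3 genes with all libraries rested on GXNI 3. That library was the highest GXNI library for all 10 genes and was left out with its values known. The smaller changes therefore follow in part from that choice.

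More of the 10 passed with another tool or filter. DESeq2 called 3 of the 10 higher for MIRI and GXNI against sham (Tlr4, Tlr13, Cd14), against 5.18% of genes, 4 for MIRI against sham (also Clec7a), against 5.34%, and 3 for GXNI against sham (Tlr13, Cd14, Myd88), against 3.56%. With edgeR and no filter on low counts the numbers were 2, against 4.18% of genes, 4, against 5.75%, and 3, against 3.57%. At an adjusted p of 0.05, DESeq2 kept all of its calls among the 10 but Myd88 in GXNI against sham. Of all genes, 1537 of 29338, 1408 of 27898 and 595 of 27956 passed in DESeq2 and were higher, in the same order of comparisons.

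The comparison of GXNI with MIRI addressed the treatment. With the labels as deposited none of the 10 genes differed past the threshold in edgeR (0 of 10), against 0.0203% of all genes tested called in either direction. In edgeR 0 of the 10 had an unadjusted p under 0.05, against 47 of 14762 genes. DESeq2 called 0 of 10. The log2 fold change, GXNI over MIRI, was -0.54 ± 1.07 for Cd14, -0.23 ± 0.95 for Tlr13, -0.21 ± 0.36 for Traf6 and -0.11 ± 0.47 for Tlr4. It was 0.35 ± 1.30 for Clec7a, 0.31 ± 1.02 for Tlr2, 0.14 ± 0.42 for Myd88, 0.14 ± 0.23 for Irak4, 0.10 ± 0.39 for Tlr7 and 0.02 ± 0.37 for Irak3. The standard errors of Cd14, Tlr13, Tlr2 and Clec7a were 0.95 to 1.30 log2 units, so that a change of 1 log2 unit could not be detected.

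With the libraries labelled MIRI 2 and GXNI 3 left out, which leaves 2 mice against 2, the log2 fold change was below 0 for all 10 genes, with a median of -0.89. Cd14 fell by 2.18 ± 0.57, Tlr4 by 0.95 ± 0.25 and Traf6 by 0.84 ± 0.19 on the log2 scale, and these 3 of 10 were called lower, against 3.47% of all genes tested. Their adjusted p values in edgeR were 0.196, 0.199 and 0.188, and 0 of the 10 genes passed an adjusted p of 0.05. Clec7a (-2.18 ± 0.73), Tlr13 (-1.64 ± 0.44) and Tlr2 (-1.35 ± 0.50) were not called. For all 10 genes MIRI 2 was the lowest MIRI library and GXNI 3 the highest GXNI library, against 31.7% of genes tested, and both were left out with their values known. The direction and the smaller standard errors therefore follow in part from the choice of libraries and are no support for a change. Between the 2 GXNI mice that remained, GXNI 1 was lower than GXNI 2 for 8 of the 10 genes, and for Cd14 by 10.6 against 39.6 CPM.

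**Figure D2:**
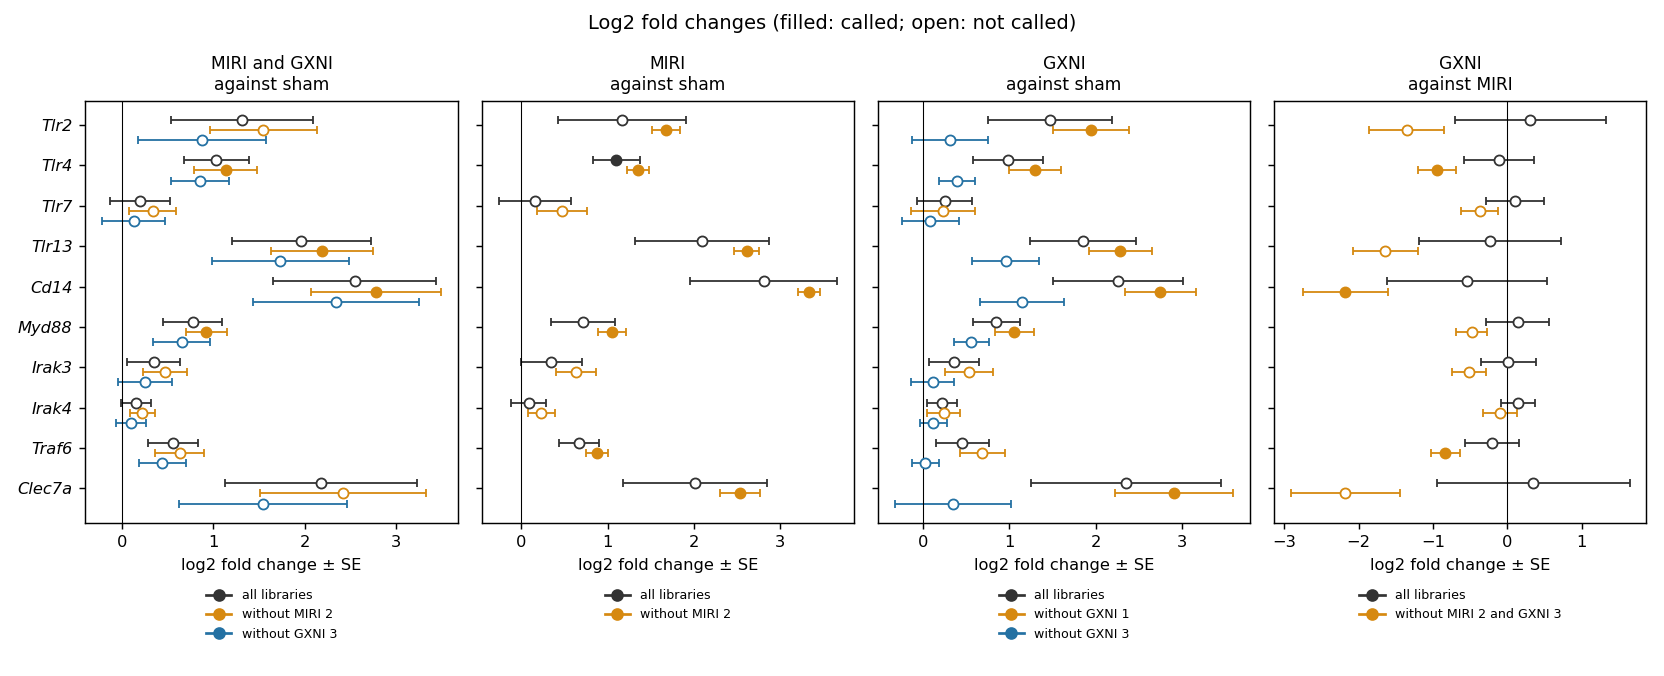
Log2 fold change ± SE (x axis) of the 10 genes (y axis) in the 4 comparisons, in black with all libraries and in orange or blue with the libraries named under each panel left out. Filled points were called at the fold and p thresholds of the study. With all libraries the 1 filled point is Tlr4 in MIRI against sham, and without MIRI 2 there are 7 in that panel, while GXNI against sham without GXNI 3 has 0.

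Cell type markers moved with these results. The summed level of 14 neutrophil markers was 18.0 to 40.8 CPM in sham, 348, 14.5 and 416 CPM in MIRI 1, 2 and 3, and 30.4, 133 and 413 CPM in GXNI 1, 2 and 3. MIRI 1, MIRI 3 and GXNI 3 were the 3 highest libraries, as for Cd14 and Tlr13, and MIRI 2 was the lowest. Of the 14 neutrophil markers, 9 were counted in every library, and Mrgpra2a was at 0 in all libraries but MIRI 1 and MIRI 3. The 14 monocyte and macrophage markers, all counted in every library, summed to 688 to 778 CPM in sham, 863, 488 and 1001 CPM in MIRI, and 856, 595 and 839 CPM in GXNI. Some of the markers in this sum moved in opposite ways in GXNI 2 and GXNI 3. Chil3, a monocyte marker, had 62, 37 and 92 counts in sham, 1383, 82 and 3715 counts in MIRI, and 125, 911 and 2658 counts in GXNI. Cd163, a scavenger receptor of resident macrophages, had 1177, 807 and 505 counts in sham, 777, 820 and 570 in MIRI, and 1670, 457 and 216 in GXNI. C1qa had 1704, 2251 and 1977 counts in sham, 1794, 1249 and 2052 in MIRI, and 2565, 1366 and 823 in GXNI. Both were lowest in GXNI 3. These counts are not scaled to the library total, which was 22811295 in MIRI 3 and 17119454 in GXNI 3. Chil3, Cd163 and C1qa were named after their values were seen and do not stand for all 14 markers. The 10 cardiomyocyte markers summed to 50810 to 53530 CPM in sham and to 34840 to 39010 CPM in MIRI 1, MIRI 3, GXNI 2 and GXNI 3, with 53550 CPM in MIRI 2 and 45560 CPM in GXNI 1.

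Set against the neutrophil sum, the genes differed. The level of Cd14 was 0.269 to 0.595 times the neutrophil sum in the 9 libraries, a 2.21-fold range, and that of Tlr13 was 0.105 to 0.339 times, a 3.21-fold range. The same ratio had a 15.3-fold range for Tlr4, 16.0-fold for Traf6 and 22.0-fold for Irak4. Set against the monocyte and macrophage sum, with its opposite movements inside, the ranges were narrow for Irak4 (1.58-fold), Irak3 (1.82-fold) and Tlr7 (2.13-fold) and wide for Cd14 (10.7-fold) and Clec7a (37.2-fold). The part of cell numbers in these results was not tested.

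**Figure D3:**
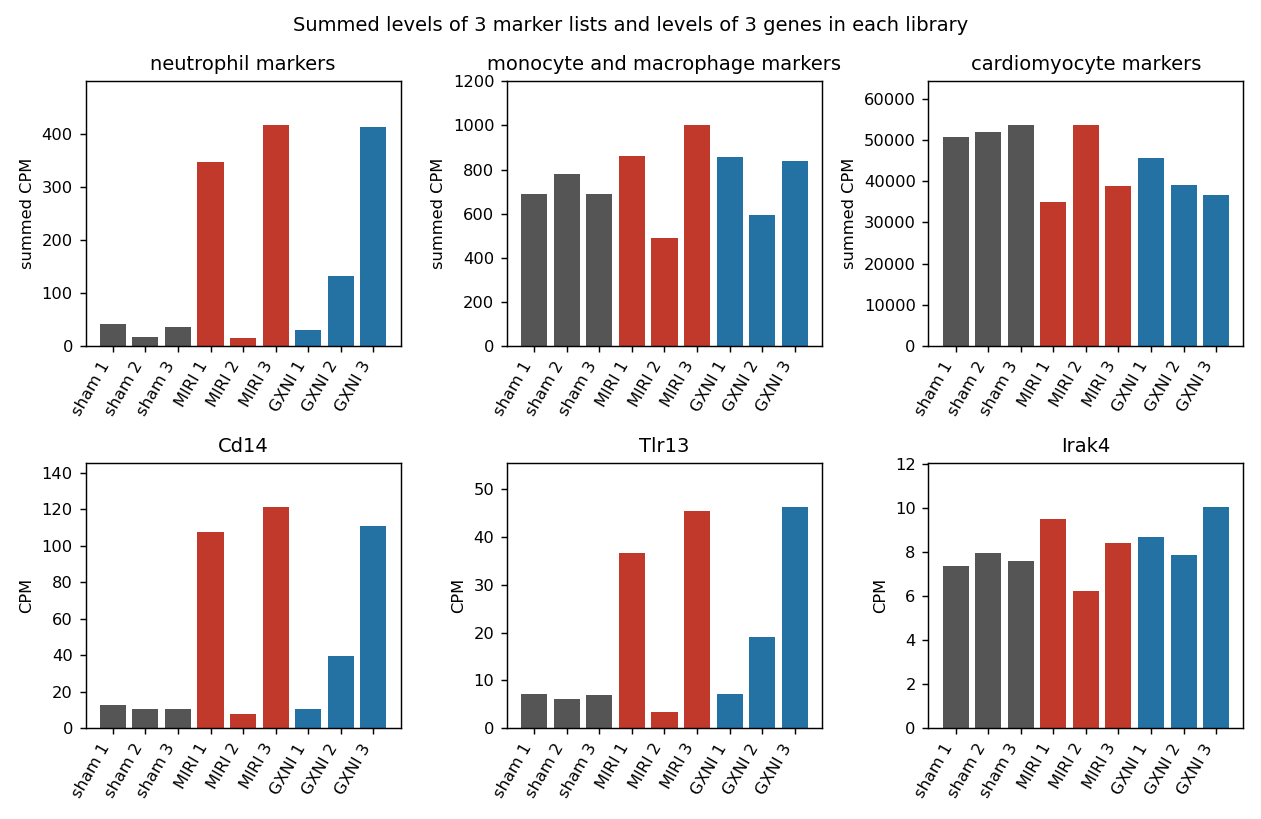
Summed CPM of 14 neutrophil, 14 monocyte and macrophage and 10 cardiomyocyte markers (upper row) and CPM of Cd14, Tlr13 and Irak4 (lower row) in each library (x axis), with bars from 0 colored by group. The neutrophil sum, Cd14 and Tlr13 are highest in MIRI 1, MIRI 3 and GXNI 3, and Irak4 stays between 6.23 and 10.04 CPM.

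The genes most like each member were found by Pearson's r of the log2 CPM over the 9 libraries, among 13438 genes with a mean of at least 1 CPM. They share the depth and the cell makeup of these libraries, and the values are a description. Fes, a tyrosine kinase of myeloid cells, was closest to Tlr13 (r = 0.998), Pygl to Cd14 (r = 0.997), Dok3 to Myd88 (r = 0.996) and Ier3 to Traf6 (r = 0.992). Amotl1 was closest to Tlr4 (r = 0.99), Fmnl1 to Clec7a (r = 0.99) and Sirpb1b to Tlr2 (r = 0.98). Mertk, a receptor by which macrophages take up dying cells, was closest to Tlr7 (r = 0.98), Il6ra to Irak3 (r = 0.98) and Atxn3 to Irak4 (r = 0.98). Among the 10 genes themselves the pair most alike was Tlr13 and Cd14 (r = 0.99) and the pair least alike was Tlr7 and Traf6 (r = 0.52).

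The rest of the pathway was read from 9 lists with 92 genes beside the 10. For MIRI and GXNI together against sham, 10 of 88 genes tested were called higher and 0 lower, against 5.52% of all genes tested called higher, with a median log2 fold change of 0.58. Among the endogenous ligands, Vcan (2.03 ± 0.43) and Tnc (5.88 ± 1.47), which encode the matrix proteins versican and tenascin-C, rose, 2 of 7 tested. S100a8 (3.05 ± 0.98) and S100a9 (3.21 ± 1.10), alarmins of neutrophils, were not called. Among the target genes of NF-κB, 4 of 13 tested were called higher. They were the chemokines Cxcl2 (6.19 ± 1.80) and Cxcl1 (3.76 ± 1.16), the cytokine Il6 (5.59 ± 1.74) and Ptgs2 (5.18 ± 1.47), which encodes the prostaglandin enzyme COX-2. Not every ligated library shared these rises. Cxcl2 had 13 counts in MIRI 2 and 7 in GXNI 1, against 9, 12 and 6 in sham. Tnc had 25 counts in GXNI 1, against 25, 31 and 21 in sham. Without GXNI 3, 5 of 87 genes were called higher, against 3.77% of all genes tested. Ptgs2 was then the 1 target gene called.

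The signal proteins beside the 10 changed in part. Among kinases and ubiquitin enzymes downstream of MyD88, Irak2 (1.29 ± 0.29) and Traf3 (0.69 ± 0.20) rose, 2 of 19. Among the transcription factors, Relb (1.61 ± 0.42), an NF-κB subunit, rose, 1 of 10. In the C-type lectin branch, Clec4d (3.19 ± 0.999) rose, 1 of 9, and Clec4n (2.21 ± 0.72), the gene of dectin-2, was not called. Of the other Toll-like receptors 0 of 6 tested were called, of the adaptors 0 of 4, of the negative regulators 0 of 12 and of the co-receptors and chaperones 0 of 8. Tlr11, Tlr12, Sarm1 and Il10 were below the filter on low counts. The co-receptor list included Ly96, the MD-2 partner of TLR4 (-0.19 ± 0.23), and Ly86, which partners CD180 (-0.82 ± 0.31), and its median log2 fold change was -0.05.

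Leaving out MIRI 2 raised these numbers as it did for the 10 genes. For MIRI against sham, 13 of 87 genes tested were called higher with all libraries, against 6.15% of all genes tested, and 48 of 88 without MIRI 2, against 16.9%, with 2 lower. The 2 lower genes, Peli3 and Tnip3, were named after their values were seen. Without MIRI 2, all 9 genes of the C-type lectin branch, 12 of 13 target genes and 8 of 10 transcription factors rose, while 0 of 8 co-receptors and chaperones were called. For GXNI against sham, 8 of 87 genes were called higher, against 2.67% of all genes tested. Without GXNI 3, 3 of 87 were called higher (Irak2, Relb, Vcan), against 2.11%, and 1 lower (Irf7, named after its value was seen). For GXNI against MIRI, 0 of 88 genes were called with all libraries. Without MIRI 2 and GXNI 3, 15 were called lower, against 3.47% of all genes tested, and 0 higher. Among the 15 were the target genes Cxcl1 (-2.55 ± 0.50), Il6 (-3.66 ± 0.61) and Ptgs2 (-3.44 ± 0.63) at adjusted p values of up to 0.188 in edgeR. Il6 had 3 counts in MIRI 2 and 538 in GXNI 3. Both libraries were left out with their values known. The numbers without them follow in part from that choice and are no independent support.

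**Figure D4:**
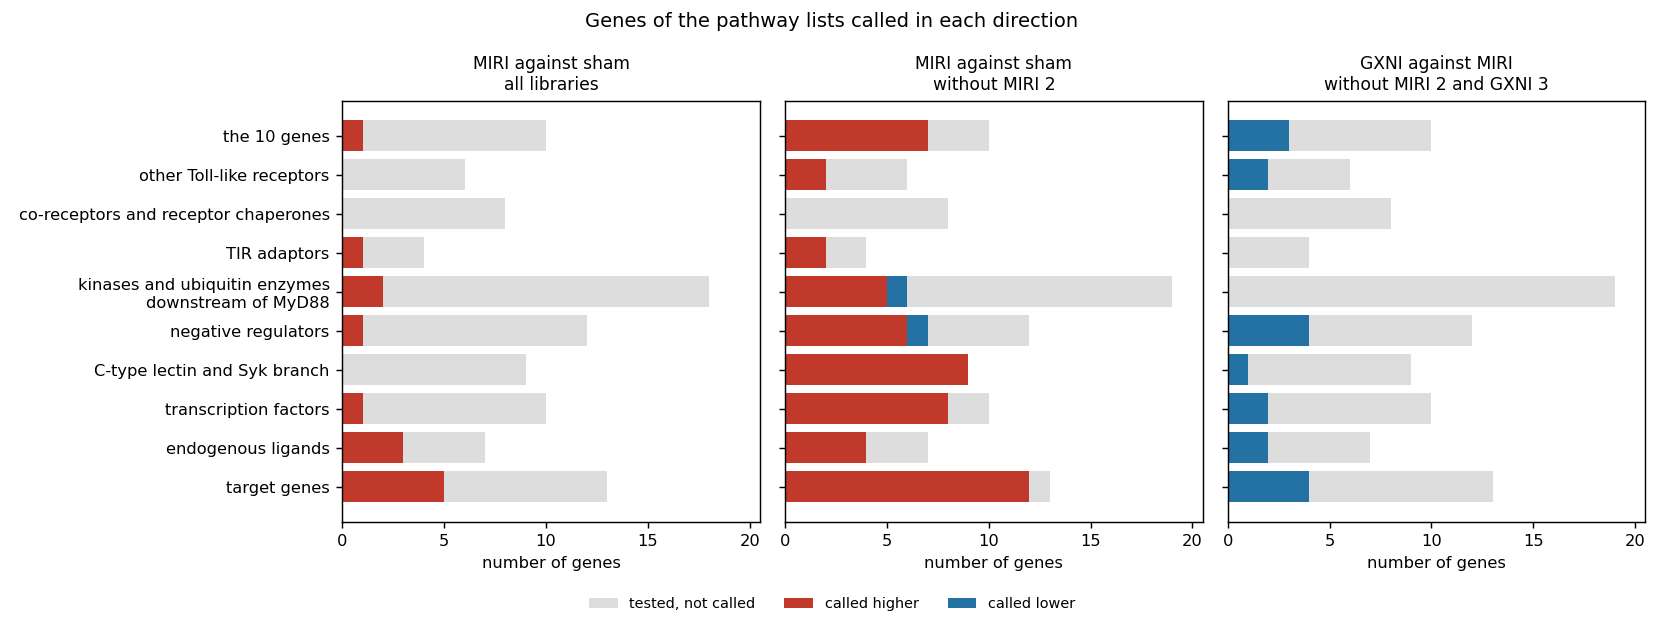
Number of genes tested (gray) and called higher (red) or lower (blue) in each pathway list (y axis; x axis: number of genes), for MIRI against sham with all libraries, the same without MIRI 2, and GXNI against MIRI without MIRI 2 and GXNI 3. Of the 10 genes, 1, 7 and 3 were called in the 3 panels.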

How the data were processed

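The authors discarded reads of low quality or with adapter or undetermined bases and deposited raw counts of reads per gene for each mouse. The submitters' processing notes name HISAT2, featureCounts of Subread and the build mm10, without versions, and the strand setting is not given in the sources used here. GENCODE M21 (GRCm38) gave a symbol for 54409 of 54532 gene identifiers. Each comparison was fitted on its own libraries with edgeR 4.0.16 in R 4.3.3 (TMM factors, the default filter on low counts, quasi-likelihood F test, no covariates), with the study's thresholds for a call. The SE is the log2 fold change divided by the square root of F. Alternatives were DESeq2 1.42.0, RLE factors, no filter, a joint fit of all 9 libraries, a block for the replicate number, an adjusted p, and libraries left out. The 10 genes and all lists were chosen with earlier results of these data known. Named genes are the 10, up to 4 per pathway list by smallest p, and the gene most like each of the 10. In a test on simulated data for MIRI against sham, edgeR recovered 200 of 200 genes changed by 2 log2 units among 14722 genes run. The simulated spread between libraries was set to the same value for all genes, so the test checks the code and not the power here. In the mice, Cd14 (2.80), Tlr13 (2.09) and Clec7a (2.01) had log2 fold changes this large in MIRI against sham and were not called. No pair among 36 pairs of libraries held counts within sampling noise of each other. Floors cover counting error only.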

Additional observations from a re-analysis of the deposited data

How the results depend on the processing

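The comparison of MIRI and GXNI with sham called 1274 genes, MIRI with sham 1313, GXNI with MIRI 3 and GXNI with sham 618. RLE factors moved none of these counts by more than 1.5 times. In the same order, DESeq2 called 2196, 2251, 11 and 1401 genes and 3, 4, 0 and 3 of the 10 genes. Without a filter the last 3 comparisons called 2406, 10 and 1425 genes, and the 10 genes gave 2, 4, 0 and 3 calls. With all 9 libraries in 1 fit, MIRI against sham called 800 genes and 0 of the 10, and GXNI against MIRI 9 genes. At an adjusted p of 0.05 in edgeR, 9, 2, 0 and 0 genes passed, and 0 of the 10. In DESeq2, 2219, 2065, 0 and 822 genes passed an adjusted p of 0.05, and 3, 4, 0 and 2 of the 10. With 1 library left out at a time, the genes called ran from 463 to 2298, 514 to 4592, 1 to 12 and 175 to 2665, and those of the 10 from 0 to 4, 0 to 7, 0 to 0 and 0 to 6. Without MIRI 2 and GXNI 3 together, MIRI and GXNI against sham called 3 of the 10, and GXNI against MIRI called 748 genes and 3 of the 10. For MIRI against sham and GXNI against sham that setting is the same as leaving out the 1 library each holds. The cause of these shifts was not tested.

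The sign of some changes turned. Without MIRI 2 and GXNI 3, the log2 fold change of GXNI against MIRI was -1.35 for Tlr2, -0.37 for Tlr7, -0.48 for Myd88, -0.51 for Irak3, -0.10 for Irak4 and -2.18 for Clec7a. With 1 library left out it ran from -0.84 to 0.83 for Tlr2, -0.70 to 0.19 for Tlr4, -0.22 to 0.31 for Tlr7, -1.12 to 0.25 for Tlr13, -0.20 to 0.34 for Myd88, -0.27 to 0.30 for Irak3, -0.0041 to 0.29 for Irak4, -0.63 to 0.014 for Traf6 and -1.65 to 0.92 for Clec7a. For Tlr7 it ran from -0.043 to 0.49 in MIRI and GXNI against sham and from -0.092 to 0.47 in MIRI against sham, where Irak4 ran from -0.054 to 0.23.

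The replicate numbers did not pair the samples, since the deviations of equally numbered libraries correlated at -0.09, 0.05 and 0.11 for MIRI and sham, at -0.44, 0.13 and 0.70 for GXNI and MIRI, and at 0.11, -0.08 and 0.12 for GXNI and sham, and not every pair of a comparison was above 0.1. With the number as a replicate block, 1501, 1065, 3 and 573 genes were called and 0, 1, 0 and 0 of the 10, and Tlr13 in GXNI against MIRI was 0.015. No group shares a mouse with another. With 3 mice a group, standard errors of up to 1.30 log2 units limit what GXNI against MIRI can show.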
